A study of Bos taurus with 18 samples.

Results

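The data described here are the stromal part of the response of a bovine endometrium-on-a-chip to recombinant bovine protein disulfide isomerase (rbPDI, gene P4HB), measured in 6 of the 18 RNA sequencing libraries of the study. The 6 libraries are those whose labels name bovine endometrial stromal cells (bESCs) with rbPDI, replicates 1 to 3, or bESCs with vehicle control (VC), replicates 1 to 3. rbPDI was given at 1 µg/mL for 24 h and VC was PBS. Each device held bESCs in a static upper chamber and bovine endometrial epithelial cells (bEECs) under flow in a lower chamber, attached below a membrane with pores. The medium with rbPDI ran past the bEECs, and the bESCs lay across the membrane from it. Both cell types of a device came from 1 animal, the replicate number stands for that animal, and the 3 animals were represented by uterine tracts collected in the late-luteal stage at an abattoir, with ages not given. The cells were primary cultures enriched by differential trypsinization and judged by eye under the microscope. Bovine CAPG (rbCAPG), given in the same way at 1 µg/mL to other devices of the same animals, makes up the third treatment of the study.

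PDI is an enzyme of the endoplasmic reticulum that makes and rearranges disulfide bonds in other proteins, and the elongating bovine conceptus also releases it into the uterine lumen before implantation. Stromal cells form the bulk of the endometrial wall, lay down its collagenous matrix, and answer signals from the epithelium with cytokines, chemokines and prostaglandins that recruit leukocytes and remodel the tissue. Many of these products share a route of induction. Inflammatory receptors release the transcription factor NF-kB from its inhibitors, NF-kB switches on chemokine, cytokine and enzyme genes, and it also switches on its own inhibitors, which close the loop.

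Levels are given as CPM (counts scaled to a common library total) adjusted with TMM factors, with the 3 values of a group in the order of animals 1 to 3. A gene was called where its Benjamini-Hochberg adjusted p over all 17931 genes tested was under 0.05 in the quasi-likelihood test of edgeR, with the animal as a block, and its absolute log2 fold change was above 1. All adjusted p-values of this section come from that test, and ± after a log2 fold change is its standard error. Where an alternative way of processing, a left-out library or a left-out animal moved the fold of a called gene by more than 1.5 times, the lowest and highest log2 fold change follow as a range, with the fit that gave each. Refits are the same test with 1 of the 6 libraries or 1 of the 3 animals left out, 9 in all. Symbols were known for 190 genes, those that the study listed after rbCAPG exposure, so most genes of the bovine genome could be counted here but not named. P4HB itself was not among them and was not analysed here. All members of the gene lists below come from the 190 genes, so calls among them are not independent evidence. Beside every list, 0.987% of all genes tested were called higher in bESCs with rbPDI. Among the identifiers that the study listed for bESCs and for bEECs alone, 89.4% and 11.2% were called higher.

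The 6 libraries differed in depth. Total counts were 43032672 to 43378560 in both libraries of animals 2 and 3, 20488416 in VC of animal 1 and 10072851 in rbPDI of animal 1, the smallest total of the series. A count of 0 allows a share of up to 2.98e-05% of that library (3 counts) and up to 6.97e-06% of the deepest VC libraries, for counting error only. The stromal label was checked against marker genes. The summed level of the 6 stromal markers with an identifier (HAND2, ZEB1, COL6A1, EMILIN1, VCAN and FGFR1) was 245 to 264 CPM with VC and 276 to 350.1 CPM with rbPDI, against 10.2 to 50.4 CPM in the 6 bEEC libraries with VC or rbPDI. The 7 epithelial markers with an identifier summed to 8.67 to 13.1 CPM with VC and 13.5 to 16.4 CPM with rbPDI, against 701 to 4398 CPM in bEECs, and the VC and rbPDI ranges in bESCs did not overlap. AIF1, the only leukocyte marker with an identifier, had 0 counts in the 3 VC libraries and 0, 1 and 1 counts with rbPDI. Of the endothelial markers TEK stayed under 1 CPM, whereas SELP, which encodes P-selectin, had 116, 156 and 214 CPM with VC and 81.99, 296 and 517 CPM with rbPDI in these stromal libraries, and its groups overlapped. In bulk libraries, fewer cells of a type and less RNA per cell cannot be told apart.

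Exposure to rbPDI was followed mainly by increases. In bESCs 189 genes were called, which is 1.05% of the genes tested, and 177 of them were higher (0.987%) and 12 lower (0.0669%) with rbPDI than with VC. The higher genes had a median log2 fold change of 2.00, or 1.99 with the 10 genes that had 3 counts or fewer in every VC library set to their lower bound, while the lower genes had a median of -1.32. The median over all genes tested was 0. Among the higher genes, 48 had a mean above 100 CPM with rbPDI and 11 had 1 CPM or less. All 12 lower genes were lower in each of the 3 animals, and 172 of the 177 higher genes were higher in each animal, against 13.8% of all genes tested that were higher in each animal and 13.5% that were lower. The call itself favours genes with a like change in each animal, so these counts are not separate support. The log2 ratio of rbPDI to VC had a median over the higher genes of 1.80 in animal 1, 1.61 in animal 2 and 2.33 in animal 3.

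**Figure D1:**
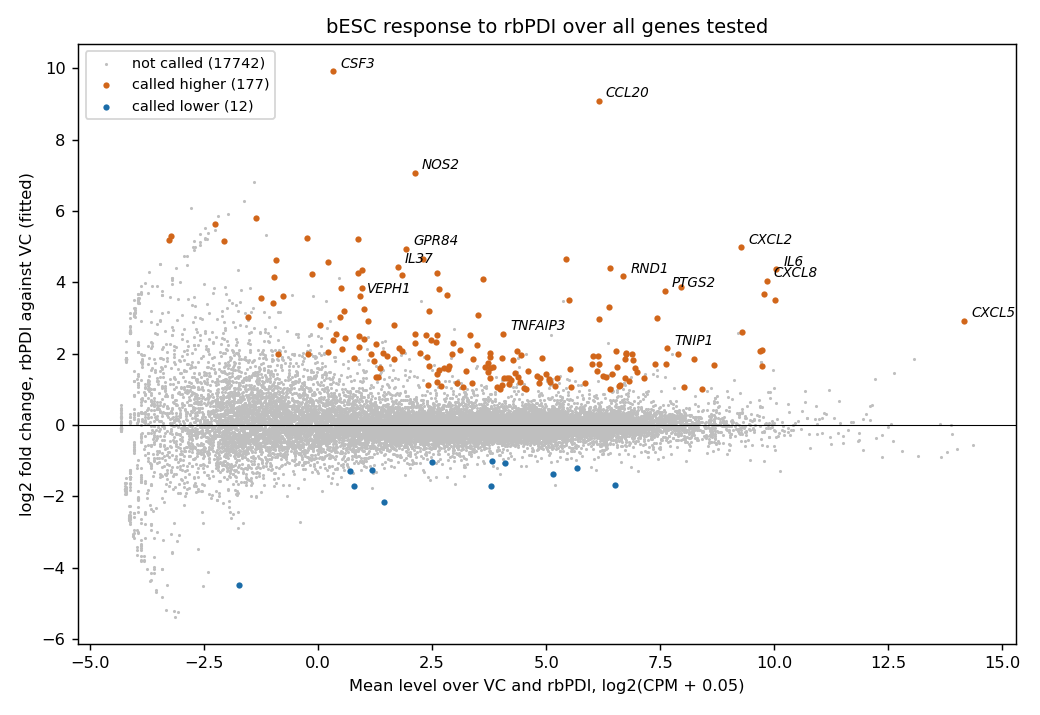
Each point is 1 of 17931 genes, with its mean level over VC and rbPDI on the x axis as log2(CPM + 0.05) and its fitted log2 fold change, rbPDI against VC in bESCs, on the y axis. Orange points are the 177 genes called higher and blue points the 12 called lower, and the orange points extend over a wide range of levels while most points lie near a fold change of 0. The fitted value of CSF3, the highest point, depends on the prior count.

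The number of called genes depended on the pairing by animal and on single libraries. Without the replicate block 32 genes were called, 31 of them higher. The 189 calls became 92 without VC of animal 1, 117 without VC of animal 3 and 72 without rbPDI of animal 3, and 49, 114 and 45 without animals 1, 2 and 3. Leaving out the shallow rbPDI library of animal 1 gave 159 calls, 151 of them higher. In every one of these fits at least 76.0% of the called genes were higher with rbPDI, the lowest share being that without VC of animal 2 (192 calls).

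**Figure D2:**
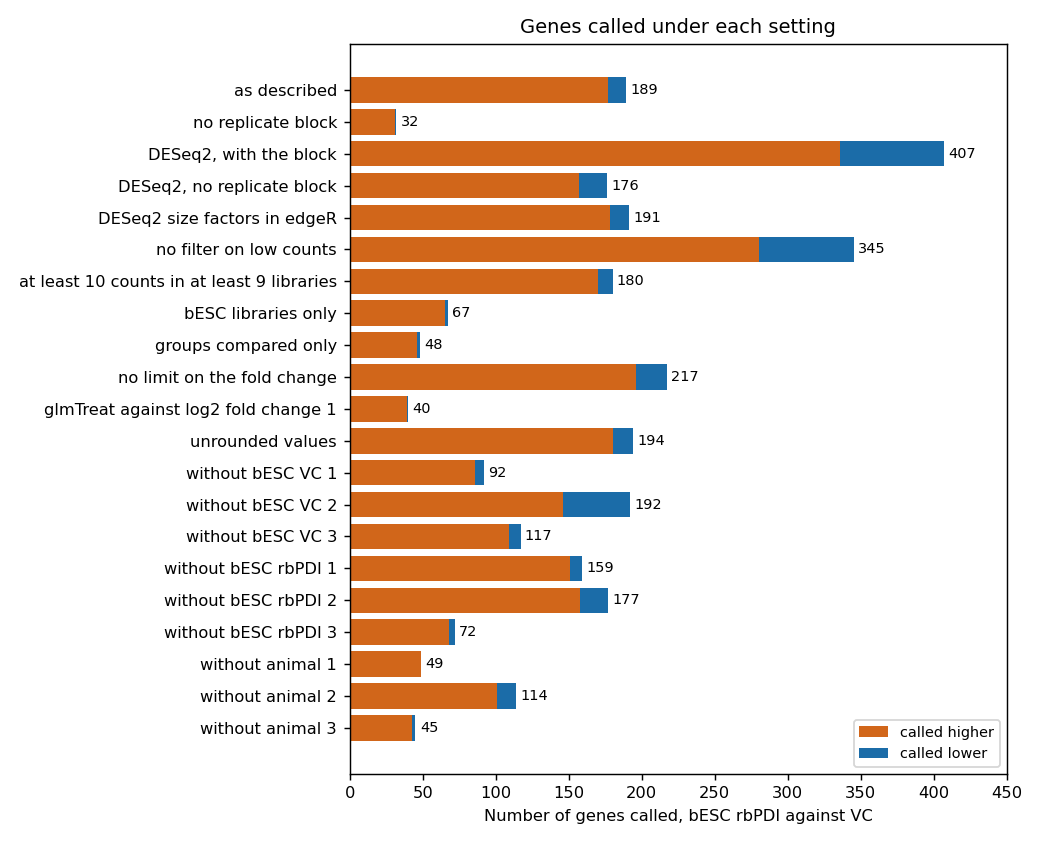
Bars give the number of genes called in bESCs, rbPDI against VC, under each way of processing, with genes called higher in orange and genes called lower in blue, and the total beside each bar. The count runs from 32 without the replicate block to 407 with DESeq2 and the block, and the orange part is the larger in every bar.

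Neutrophil-attracting CXC chemokines rose together. All 5 members of this list were called higher, and for each of them the 3 rbPDI libraries lay above the 3 VC libraries, which held for 4.1% of all genes tested, against 3.39% in the opposite direction. The members were drawn from genes the study listed after rbCAPG exposure, in part against the same VC libraries, so this is not independent evidence. CXCL2 (ENSBTAG00000027513), a ligand of the neutrophil receptor CXCR2, stood at 62.4, 39.02 and 18.5 CPM with VC and 1175, 1173 and 1263 CPM with rbPDI. The rbPDI values were close to each other although the VC values fell apart (log2 fold change 4.98 ± 0.54, adjusted p = 0.000578, range 4.50 without bESC VC of animal 3 to 5.57 without bESC VC of animal 1). CXCL5, a related ligand, stood at 3665, 8609 and 1946 CPM with VC and 24840, 33920 and 36660 CPM with rbPDI (log2 fold change 2.92 ± 0.51, adjusted p = 0.0116). CXCL8, or interleukin-8, stood at 93.9, 114 and 38.5 CPM with VC and 1120, 1089 and 3012 CPM with rbPDI (log2 fold change 4.04 ± 0.76, adjusted p = 0.0164, range 3.31 without bESC VC of animal 3 to 4.64 without bESC VC of animal 2), and animal 3 had both the lowest VC value and the highest rbPDI value. GRO1, another ligand of the same family, stood at 38.5, 39.9 and 12.2 CPM with VC and 341, 437 and 616 CPM with rbPDI (log2 fold change 3.87 ± 0.56, adjusted p = 0.00344, range 3.21 without bESC VC of animal 3 to 4.44 without bESC VC of animal 1). CXCL3 stood at 52.95, 43.99 and 15.2 CPM with VC and 259.7, 289 and 375 CPM with rbPDI (log2 fold change 2.99 ± 0.55, adjusted p = 0.0142, range 2.36 without bESC VC of animal 3 to 3.45 without bESC VC of animal 1). The call held in 9 of 9 refits for CXCL2 and GRO1, 5 of 9 refits for CXCL8 and 4 of 9 refits for CXCL3 and CXCL5, and the list had 2 calls in the refits without rbPDI of animal 3 and without animal 1. CXCL2, CXCL3 and GRO1 are close copies whose reads the counting could divide, so the split among these 3 genes is uncertain. Fractions, the mark of divided reads, stood in 5, 5 and 6 of their 6 deposited values, and also in 4 of 6 for both CXCL5 and CXCL8.

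**Figure D3:**
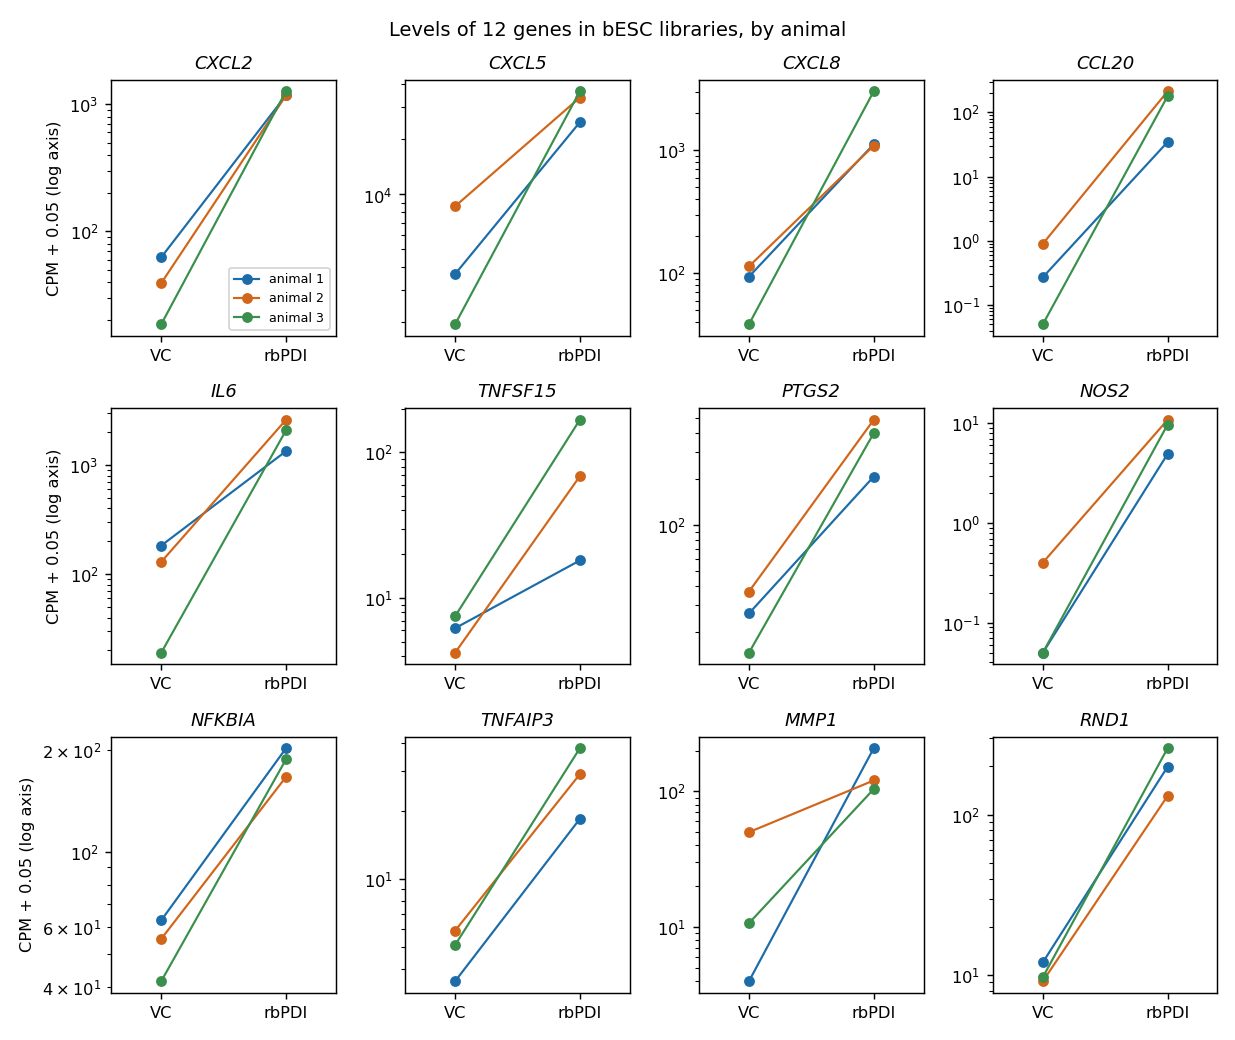
Each panel shows 1 gene, with CPM + 0.05 on a log axis and the VC and rbPDI libraries of the same animal joined by a line, n = 3 animals. Every line rises, and the 3 rbPDI points of each gene lie above its 3 VC points.

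Chemokines for other leukocytes were also higher. In the list of other chemokines and receptors, 5 of 6 members were called higher, with a median log2 fold change of 3.83 over the list, or 3.34 with CX3CL1, whose VC libraries held 3 counts or fewer, at its lower bound. CCL20, which attracts dendritic cells and lymphocytes through CCR6, had 0.2202, 0.846 and 0 CPM with VC and 34.4, 212 and 178 CPM with rbPDI (log2 fold change 9.09 ± 0.89, adjusted p = 0.000565, range 8.02 without animal 3 to 10.30 without animal 2). Its VC values amounted to 5, 41 and 0 counts. CCL5, a chemokine that attracts T cells and monocytes, had 9.51, 17.2 and 1.26 CPM with VC and 108, 257 and 112 CPM with rbPDI (log2 fold change 4.39 ± 0.57, adjusted p = 0.00162, range 3.71 without animal 3 to 4.92 without animal 1). Both calls held in all 9 refits. CX3CL1, a membrane-bound ligand of monocytes and natural killer cells, had 0, 1 and 3 counts with VC and 6, 21 and 77 counts with rbPDI (adjusted p = 0.00727, 4 of 9 refits), and its fitted fold change is not given because it depends on so few counts. CXCL16 (log2 fold change 1.86 ± 0.34, adjusted p = 0.0133) and the decoy-like receptor CCRL2 (log2 fold change 3.27 ± 0.53, adjusted p = 0.00727, range 2.51 without animal 3 to 4.46 without bESC VC of animal 2), both named after their values were seen, completed the called members and held in 3 of 9 refits and 6 of 9 refits. The list had 2 calls without animal 3. The remaining member, the chemokine receptor CXCR4, also named after its values were seen, had 1.81, 3.84 and 0.557 CPM with VC and 3.83, 2.14 and 1.29 CPM with rbPDI and overlapping groups (log2 fold change 0.32 ± 0.38, adjusted p = 0.885).

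Among cytokines and hormones, 4 of 7 members were called higher, with a median log2 fold change of 3.51. IL6, a cytokine of the acute phase, rose from 183, 129 and 18.98 CPM to 1339, 2595 and 2076 CPM in animals 1 to 3 (log2 fold change 4.37 ± 0.72, adjusted p = 0.007401, range 3.60 without bESC VC of animal 3 to 5.23 without animal 1), a smaller step in animal 1 than in animal 3. CSF3, the growth factor that releases neutrophils from the bone marrow, was not counted in any VC library and had 9, 273 and 22 counts with rbPDI. Against a floor of 3 counts per VC library its mean over the 3 animals was at least 27.8-fold higher (adjusted p = 0.000578). Animal 2 carried most of its counts, with 0.782, 5.90 and 0.509 CPM with rbPDI in animals 1 to 3. The bound is therefore that of the mean and does not hold for animals 1 and 3 taken alone. TNFSF15, a TNF-family ligand that acts on lymphocytes and endothelium, had 6.17, 4.17 and 7.46 CPM with VC and 18.1, 68.5 and 167 CPM with rbPDI (log2 fold change 3.51 ± 0.57, adjusted p = 0.00726, range 2.50 without bESC rbPDI of animal 3 to 4.29 without animal 1), and rbPDI of animal 3 lay furthest from VC. IL37, an interleukin-1 family member that dampens inflammation, had 0.176, 0.495 and 0 CPM with VC and 14.1, 2.46 and 2.59 CPM with rbPDI (log2 fold change 4.44 ± 0.82, adjusted p = 0.0213, range 3.53 without animal 1 to 6.62 without animal 2). The calls held in 8 of 9 refits for IL6, 9 of 9 refits for CSF3, 6 of 9 refits for TNFSF15 and 3 of 9 refits for IL37, which was named after its values were seen. Of the list, 2 genes were called without VC of animal 3, without animal 2 or without animal 3.

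Of the list of cytokine receptors and antagonists, 4 of 6 members were called higher, with a median log2 fold change of 1.63. CD40, the receptor for T-cell help, had 44.2, 35.8 and 21.6 CPM with VC and 135, 114 and 78.9 CPM with rbPDI (log2 fold change 1.72 ± 0.21, adjusted p = 0.00134, 8 of 9 refits). TNFRSF11B, the soluble decoy receptor osteoprotegerin, had 0.0881, 0.557 and 0 CPM with VC and 2.87, 4.69 and 3.099 CPM with rbPDI (log2 fold change 4.35 ± 0.68, adjusted p = 0.00533, range 3.49 without animal 3 to 6.53 without animal 2, 8 of 9 refits). IL18R1, a chain of the interleukin-18 receptor, had 10.04, 13.2 and 9.38 CPM with VC and 22.6, 33.7 and 22.9 CPM with rbPDI (log2 fold change 1.27 ± 0.20, adjusted p = 0.00599, 5 of 9 refits). TNFRSF9, named after its values were seen, was called with overlapping groups (log2 fold change 1.93 ± 0.41, adjusted p = 0.0336) and held in 2 of 9 refits. In the refit without animal 1, only 1 of the 6 members was called.

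Genes listed here as negative feedback regulators of NF-kB rose. All 7 members of this list were called higher, with a median log2 fold change of 1.97. For none of them did the VC and rbPDI libraries overlap. Of all genes tested, 4.1% were higher without overlap and 3.39% lower. All 7 members were also called higher with rbCAPG in bESCs against the same VC libraries, so this is not independent evidence. The name is that of the list, and whether each member, NFKBIZ and BIRC3 among them, restrains NF-kB in these cells was not tested. TNFAIP3, the ubiquitin-editing enzyme A20 that shuts down signalling to NF-kB, had 3.48, 5.86 and 5.06 CPM with VC and 18.4, 29.1 and 37.9 CPM with rbPDI (log2 fold change 2.56 ± 0.26, adjusted p = 0.000565). Its partner TNIP1 had 59.1, 86.7 and 74.5 CPM with VC and 277, 382 and 318 CPM with rbPDI (log2 fold change 2.15 ± 0.23, adjusted p = 0.000565). ZC3H12A, a ribonuclease that degrades cytokine messages, had 7.84, 9.59 and 8.74 CPM with VC and 26.3, 33.4 and 45.05 CPM with rbPDI (log2 fold change 1.97 ± 0.22, adjusted p = 0.000734). These 3 calls held in all 9 refits. NFKBIA, the inhibitor that holds NF-kB in the cytoplasm, had 62.7, 55.2 and 41.4 CPM with VC and 203, 167 and 188 CPM with rbPDI (log2 fold change 1.81 ± 0.28, adjusted p = 0.00523, 8 of 9 refits), and NFKBIZ, a nuclear member of the same family, had 27.97, 38.8 and 36.8 CPM with VC and 61.3, 101 and 148 CPM with rbPDI (log2 fold change 1.51 ± 0.18, adjusted p = 0.001099, 9 of 9 refits). BIRC3, an inhibitor of apoptosis and ubiquitin ligase of TNF receptor complexes, had a log2 fold change of 1.93 ± 0.27 (adjusted p = 0.00282, 7 of 9 refits). IER3, an early response gene that limits cell death, had 240.2, 447 and 244 CPM with VC and 838, 1510 and 1835 CPM with rbPDI (log2 fold change 2.12 ± 0.38, adjusted p = 0.0127, 2 of 9 refits). The list had 7 calls without rbPDI of animal 1 and 4 without animal 3.

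Of the NF-kB subunits and the kinase upstream of them, 2 of 3 were called higher, with a median log2 fold change of 1.38. NFKB1, which encodes the p50 subunit, had 28.9, 25.3 and 36.3 CPM with VC and 54.2, 44.4 and 47.5 CPM with rbPDI and was not called (log2 fold change 0.69 ± 0.22, adjusted p = 0.228), although its groups did not overlap. NFKB2, the p52 subunit of the non-canonical route, had 34.1, 33.1 and 58.9 CPM with VC and 90.4, 115 and 124 CPM with rbPDI (log2 fold change 1.38 ± 0.27, adjusted p = 0.0218, 2 of 9 refits). MAP3K8, a kinase that p105 holds inactive, had 2.95, 2.33 and 2.33 CPM with VC and 7.83, 5.402 and 11.4 CPM with rbPDI (log2 fold change 1.64 ± 0.29, adjusted p = 0.0122, 4 of 9 refits). No member of this list of 3 was called in the refits without rbPDI of animal 3, without animal 1 or without animal 2.

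Enzymes of prostaglandin and nitric oxide synthesis, whose products act on the vessels and muscle of the uterus, rose. In this list 4 of 5 members were called higher, with a median log2 fold change of 2.00. PTGS2 (ENSBTAG00000014127), the inducible cyclooxygenase that starts prostaglandin synthesis, had 26.5, 36.8 and 14.7 CPM with VC and 206, 484 and 396 CPM with rbPDI (log2 fold change 3.76 ± 0.43, adjusted p = 0.000737, range 3.29 without animal 3 to 4.35 without bESC VC of animal 1), and the call held in all 9 refits. PLA2G4A, the phospholipase that frees arachidonic acid for PTGS2, had 61.9, 61.1 and 24.01 CPM with VC and 152, 262 and 143 CPM with rbPDI (log2 fold change 2.00 ± 0.27, adjusted p = 0.00248) and also held in all 9. NOS2, the inducible nitric oxide synthase, had 0, 0.351 and 0 CPM with VC and 4.87, 10.8 and 9.64 CPM with rbPDI (log2 fold change 7.08 ± 0.89, adjusted p = 0.00142, range 5.85 without animal 3 to 10.89 without animal 2, 8 of 9 refits), with 0, 17 and 0 counts behind the VC values. ALOX12, a lipoxygenase that uses the same arachidonic acid, had 22.1, 106 and 71.7 CPM with VC and 79.99, 186 and 169 CPM with rbPDI. Its groups overlapped because VC of animal 2 lay above rbPDI of animal 1, while it was higher with rbPDI within each animal (log2 fold change 1.31 ± 0.24, adjusted p = 0.0163, 3 of 9 refits). PLA2R1, the receptor for secreted phospholipases, had 20.4, 24.9 and 48.5 CPM with VC and 25.6, 44.2 and 41.98 CPM with rbPDI with overlapping groups (log2 fold change 0.27 ± 0.31, adjusted p = 0.875). Without animal 1 the list had 2 calls.

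Among 12 other transcription factors 5 were called higher, with a list median of 1.11, or 0.83 with genes at the VC floor at their bound. NFE2L3, a CNC-family factor, had 1.101, 0.784 and 0.193 CPM with VC and 4.17, 3.07 and 1.503 CPM with rbPDI (log2 fold change 2.18 ± 0.28, adjusted p = 0.00158, 9 of 9 refits). MAFF, a small Maf protein that pairs with such factors, had 14.9, 13.8 and 10.3 CPM with VC and 34.3, 27.8 and 27.4 CPM with rbPDI (log2 fold change 1.21 ± 0.19, adjusted p = 0.00561, 6 of 9 refits). ARNTL2, a partner of the clock factor CLOCK, had 5.24, 4.89 and 3.62 CPM with VC and 18.3, 17.6 and 13.6 CPM with rbPDI (log2 fold change 1.86 ± 0.30, adjusted p = 0.0117, 4 of 9 refits). IRF1 (log2 fold change 1.43 ± 0.26, adjusted p = 0.0148) and CEBPD (1.02 ± 0.20, adjusted p = 0.0213), both inducible factors of the inflammatory response and named after their values were seen, held in 5 of 9 refits and 0 of 9 refits. HAND2, the progesterone-responsive factor of endometrial stroma, had 6.61, 5.05 and 4.28 CPM with VC and 6.26, 5.704 and 4.903 CPM with rbPDI (log2 fold change 0.11 ± 0.26, adjusted p = 0.966), and ZEB1, a factor of mesenchymal cells, had 21.7, 34.8 and 44.4 CPM with VC and 21.1, 32.9 and 39.9 CPM with rbPDI (log2 fold change -0.09 ± 0.21, adjusted p = 0.958), both with overlapping groups. The list had 1 call without rbPDI of animal 3 or without animal 3.

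Of 10 proteases and plasminogen system genes 2 were called higher, and of 11 matrix components and glycan enzymes none was called, where 0.987% of all genes tested were called higher. With DESeq2 and the block, or with no filter on low counts, the counts were 4 and 1. MMP1, the collagenase that cuts fibrillar collagen, had 3.92, 49.97 and 10.6 CPM with VC and 208, 120.4 and 104 CPM with rbPDI (log2 fold change 3.32 ± 0.60, adjusted p = 0.0133, range 2.17 without animal 1 to 4.50 without animal 2, 5 of 9 refits), and VC of animal 2 lay nearest to the rbPDI libraries. ADAMTS5, which cleaves versican and other proteoglycans, had 5.86, 26.2 and 11.6 CPM with VC and 29.3, 56.2 and 50.3 CPM with rbPDI (log2 fold change 1.87 ± 0.26, adjusted p = 0.00301, 7 of 9 refits). PLAU, the urokinase that activates plasminogen, had 27, 45.3 and 23.9 CPM with VC and 188, 68.04 and 77.8 CPM with rbPDI, groups that did not overlap, and no call (log2 fold change 1.64 ± 0.45, adjusted p = 0.129). Neither MMP1 nor ADAMTS5 was called without animal 1 or without animal 3. The matrix list had a median log2 fold change of 0.22 and held structural genes with overlapping groups. COL6A1, a chain of collagen VI, had 56.03, 43.4 and 40.5 CPM with VC and 54.5, 51.9 and 54.05 CPM with rbPDI. VCAN, the proteoglycan versican, had 90.3, 113.3 and 102 CPM with VC and 108, 187 and 117 CPM with rbPDI. HAS2, a hyaluronan synthase, had 4.41, 3.63 and 0.5998 CPM with VC and 12.7, 6.03 and 6.98 CPM with rbPDI and CHST11, a chondroitin sulfotransferase, 1.72, 2.33 and 2.06 CPM with VC and 3.999, 3.07 and 3.31 CPM with rbPDI, both without overlap and without a call (adjusted p = 0.213 and 0.366). BPNT2, a Golgi phosphatase of the sulfation pathway, passed the p threshold but not that on the fold (log2 fold change 0.84 ± 0.19, adjusted p = 0.04303).

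Surface and recognition genes gave 4 calls higher among 13, with a list median of 0.82. GPR84, a receptor for medium-chain fatty acids found on myeloid cells, had 0.264, 0.536 and 0.0428 CPM with VC and 2.26, 11.3 and 8.21 CPM with rbPDI (log2 fold change 4.94 ± 0.61, adjusted p = 0.00316, range 4.03 without animal 3 to 5.42 without animal 1), and SLAMF8, a self-binding receptor also known from myeloid cells, had 1.41, 3.14 and 1.48 CPM with VC and 9.65, 11.9 and 8.33 CPM with rbPDI (log2 fold change 2.34 ± 0.28, adjusted p = 0.001099), and both held in all 9 refits. CD83, a marker of activated dendritic cells, had 1.98, 1.96 and 0.428 CPM with VC and 12.6, 4.99 and 4.07 CPM with rbPDI (log2 fold change 2.31 ± 0.45, adjusted p = 0.0205, 2 of 9 refits). OLR1, the receptor for oxidized LDL, named after its values were seen, had 575, 184 and 259 CPM with VC and 961, 955 and 2039 CPM with rbPDI (log2 fold change 2.07 ± 0.43, adjusted p = 0.02902, 3 of 9 refits). The first 3 genes are known mainly from leukocytes. AIF1, the only leukocyte marker with an identifier, had at most 1 count in the same libraries. In bEECs AIF1 stood at 4.02 to 14.2 CPM with VC and 20.1 to 30.3 CPM with rbPDI. Which cells carried the RNA of these 3 genes was not tested. Of the list, 2 genes were called without VC of animal 3, without rbPDI of animal 3, without animal 2 or without animal 3.

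Transporters gave 2 calls higher among 15, with a median of 0.16. Of all genes tested 0.987% were called higher, and of the identifiers listed for bEECs alone 11.2%. SLC39A14, the zinc and manganese importer of the acute phase, had 13.9, 25.6 and 18.9 CPM with VC and 38.6, 47.8 and 54.3 CPM with rbPDI (log2 fold change 1.3 ± 0.18, adjusted p = 0.00282, 7 of 9 refits), and ABCC2, an export pump for conjugates, had 0.176, 0.0825 and 0.0428 CPM with VC and 0.782, 1.599 and 2.498 CPM with rbPDI (log2 fold change 4.25 ± 0.77, adjusted p = 0.0136, range 3.31 without animal 3 to 5.20 without bESC VC of animal 1, 4 of 9 refits). SLCO4A1, an organic anion transporter, had 0.352, 0.144 and 0.2999 CPM with VC and 2.87, 1.77 and 1.43 CPM with rbPDI, with groups that did not overlap but no call (log2 fold change 2.93 ± 0.74, adjusted p = 0.0871). Of these 15 genes 4 had 3 counts or fewer in each of the 6 libraries. A fall in them was thus not detectable at this depth, and none rose above 3 counts with rbPDI. Without animal 3 no transporter was called. None of the 9 vascular and guidance genes was called, with a median log2 fold change of 0.45, or 0.27 with genes at the VC floor at their bound. The members with the smallest p-values were ANGPT1, a ligand that steadies vessels (log2 fold change 1.25 ± 0.35, adjusted p = 0.136), UNC5B, a netrin receptor (log2 fold change 1.09 ± 0.31, adjusted p = 0.151), and NRP2, a receptor for semaphorins and VEGF (log2 fold change -0.81 ± 0.28, adjusted p = 0.288).

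Among small GTPases and signalling modulators 6 of 14 were called higher, with a median of 0.66. RND1, a small GTPase that loosens the actin cytoskeleton, had 11.9, 9.099 and 9.64 CPM with VC and 199, 131 and 259.6 CPM with rbPDI (log2 fold change 4.17 ± 0.43, adjusted p = 0.000565) and held in all 9 refits. GSAP, the gamma-secretase activating protein, had 1.06, 2.19 and 0.7498 CPM with VC and 5.999, 11.02 and 5.02 CPM with rbPDI (log2 fold change 2.55 ± 0.33, adjusted p = 0.00158, 8 of 9 refits), and RRAD, a Ras-like protein that binds calcium channel subunits, had 5.15, 17.8 and 4.03 CPM with VC and 26.1, 41.3 and 28.6 CPM with rbPDI (log2 fold change 2.08 ± 0.30, adjusted p = 0.00353, 7 of 9 refits). PDE4B, a cAMP phosphodiesterase (log2 fold change 1.57 ± 0.24, adjusted p = 0.00439, 8 of 9 refits), STAP2, a signalling adaptor (log2 fold change 1.57 ± 0.26, adjusted p = 0.00897, 3 of 9 refits), and RHOJ, a small GTPase (log2 fold change 1.00 ± 0.19, adjusted p = 0.0179, 2 of 9 refits), were the others and were named after their values were seen. Without animal 3 this list had 1 call.

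**Figure D4:**
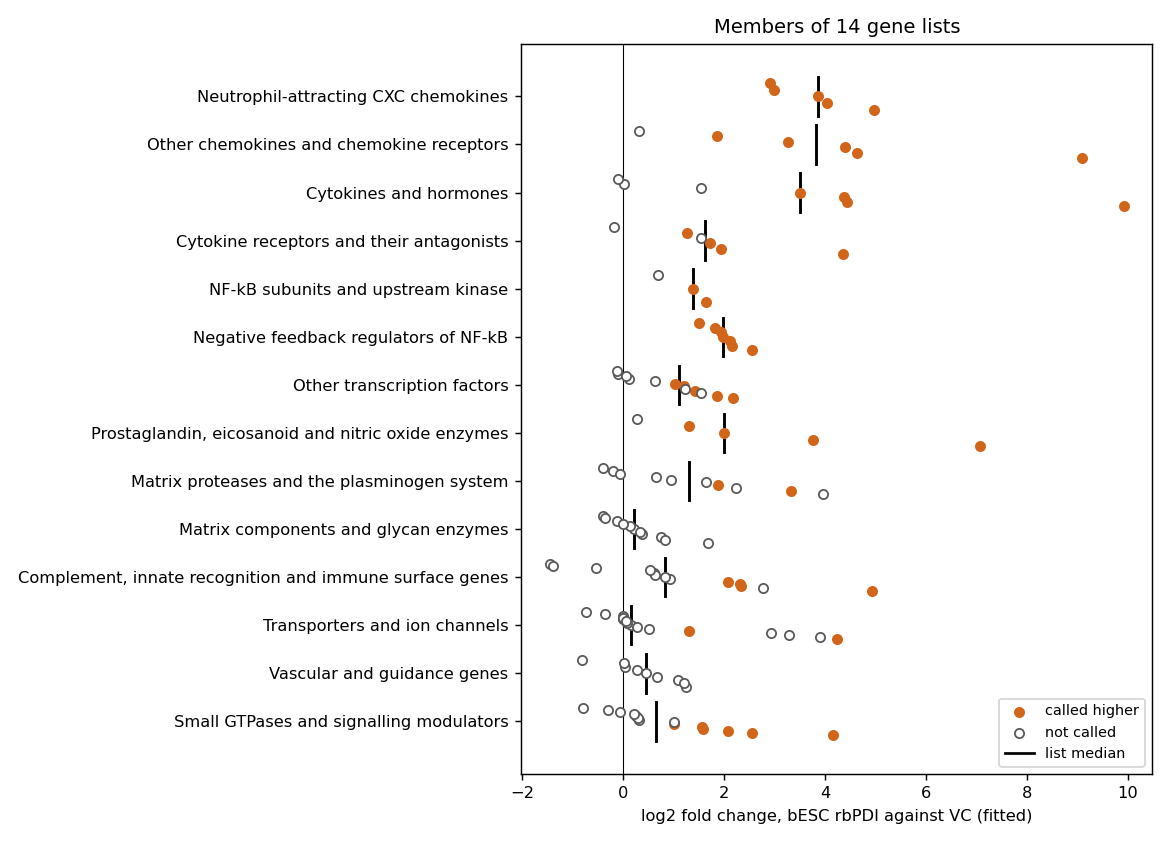
Each point is 1 of 123 list members, placed by its fitted log2 fold change in bESCs, rbPDI against VC, with called genes in orange, genes not called as open circles and the median of each list as a black bar. All members of the CXC chemokine and feedback lists are orange, and the matrix component and vascular lists have open circles only; the fitted value of CSF3, whose VC libraries are at 0, depends on the prior count and is no bound.

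Over the 14 lists, 50 of 123 members were called higher and none lower, with a median log2 fold change of 1.2, or 1.00 with genes at the VC floor at their bound. The count was 47 without rbPDI of animal 1, 28 without rbPDI of animal 3, and 25, 34 and 21 without animals 1, 2 and 3. The study compiled these symbols from genes that changed with rbCAPG, in bESCs (66 identifiers, measured against the same VC libraries) or in bEECs, so their direction is not independent evidence. Of the 66 identifiers that the study listed for bESCs, 59 were called higher (89.4%), with a median log2 fold change of 2.20. Of the 179 identifiers that the study listed for bEECs alone, 20 were called higher (11.2%) and none lower, with a median log2 fold change of 0.27. Outside the lists 14 further genes with a symbol were called higher. VEPH1, a protein of the inner cell membrane, had 0.2202, 0.3301 and 0.2999 CPM with VC and 3.13, 3.72 and 3.38 CPM with rbPDI (log2 fold change 3.62 ± 0.37, adjusted p = 0.000565), and AHI1, a protein of the ciliary base, had 105, 106 and 74.7 CPM with VC and 376, 398 and 353 CPM with rbPDI (log2 fold change 2.00 ± 0.21, adjusted p = 0.000565), both with values close to each other within a group and calls in all 9 refits. PDXK, the kinase that activates vitamin B6, named after its values were seen, had 34.5, 62.6 and 35.1 CPM with VC and 141, 207 and 161 CPM with rbPDI (log2 fold change 1.99 ± 0.22, adjusted p = 0.000578) and also held in all 9.

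Most calls, 125 of the 189, had no symbol in the sources used here, and all 12 lower genes were among them. ENSBTAG00000050417 rose in each animal at 2.38, 0.784 and 1.09 CPM with VC and 16.4, 3.48 and 6.61 CPM with rbPDI (log2 fold change 2.52 ± 0.21, adjusted p = 0.000284) and ENSBTAG00000055410 at 0.132, 0.908 and 0.171 CPM with VC and 5.74, 12.3 and 9.83 CPM with rbPDI (log2 fold change 4.65 ± 0.49, adjusted p = 0.000565, range 4.15 without animal 3 to 5.62 without bESC VC of animal 2), and both held in all 9 refits. ENSBTAG00000013306 fell in each animal, at 6.12, 1.77 and 5.53 CPM with VC and 0.956, 0.713 and 0.971 CPM with rbPDI (log2 fold change -2.17 ± 0.29, adjusted p = 0.00173, 7 of 9 refits). ENSBTAG00000024493 had 79.5, 48.9 and 284 CPM with VC and 32.3, 11.9 and 87.5 CPM with rbPDI (log2 fold change -1.67 ± 0.25, adjusted p = 0.00456, 7 of 9 refits), with groups that overlapped between animals but a lower value with rbPDI within each. Among the higher genes, 10 had 3 counts or fewer in each VC library, and 4 had more than 3 counts in a single rbPDI library only.

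Of the 7 epithelial markers, 3 were themselves called higher in bESCs. The shares called higher were 0.987% of all genes tested and 11.2% of the identifiers listed for bEECs alone. These markers also come from the 190 genes, so the count is not independent evidence. MUC1, a membrane mucin, had 2, 6 and 15 counts with VC and 12, 30 and 32 counts with rbPDI (log2 fold change 2.00 ± 0.42, adjusted p = 0.0334, range 1.62 without animal 1 to 2.84 without bESC VC of animal 3, 1 of 9 refits), and OCLN, a tight junction protein, had 7, 11 and 12 counts with VC and 3, 74 and 140 counts with rbPDI (log2 fold change 2.82 ± 0.55, adjusted p = 0.0213, range 1.97 without bESC rbPDI of animal 3 to 3.36 without bESC rbPDI of animal 1, 2 of 9 refits). GJB6, a gap junction protein, had 12, 25 and 6 counts with VC and 34, 76 and 80 counts with rbPDI (log2 fold change 2.54 ± 0.43, adjusted p = 0.00918, 4 of 9 refits), and in bEECs with rbPDI it was at 0.937 to 2.52 CPM, a range that overlapped the 1.64 to 2.95 CPM of bESCs with rbPDI. With VC it was at 0.1285 to 0.528 CPM in bESCs and 0.0302 to 0.32 CPM in bEECs, so GJB6 did not separate the cell types here. The other 4 epithelial markers were not called higher. AGR2, at 1930 to 3355 CPM in bEECs with rbPDI, had 6, 4 and 0 counts in bESCs with rbPDI and 0, 1 and 0 with VC, and RBM47 had 0, 3 and 3 counts with rbPDI and 14, 9 and 32 with VC. The bESC level with rbPDI as a share of the bEEC level with rbPDI in the same animal differed widely among the epithelial markers. It was 0 to 0.0209% for AGR2, 0 to 0.0715% for RBM47, 0.0862 to 0.135% for MUC1 and 0.234 to 2.85% for OCLN, but 4.98 to 10.9% for CDH26 and 8.39 to 16.2% for FERMT1, which were also measured in bESCs with VC at 2.97 to 3.87 and 4.28 to 7.66 CPM. Among chemokines and cytokines this share was 58 to 263% for CXCL2, 22.3 to 70% for CXCL3, 204 to 696% for CXCL5, 62.9 to 562% for CXCL8, 42.3 to 159% for GRO1, 19 to 98.4% for CCL5, 29.8 to 258% for CCL20, 38.6 to 263% for IL6, 8.46 to 79.2% for CSF3 and 11.4 to 66.7% for TNFSF15. The ranges of CSF3 and TNFSF15 thus overlapped that of FERMT1, and that of CSF3 also overlapped that of CDH26. Among other genes it was 514 to 1270% for PTGS2, 931 to 1630% for NOS2, 654 to 771% for RND1, 45.3 to 104% for TNFAIP3, 48.6 to 88.9% for MMP1 and 0.0943 to 0.666% for MMP13, a collagenase that was not called and was named after its values were seen. The summed level of the 7 epithelial markers in bESCs was 0.651 to 1.87% of that in bEECs with VC and 0.365 to 0.47% with rbPDI. The lower share with rbPDI came with a larger bEEC sum, not with a smaller bESC sum. In bEECs the sum was 701 to 1538 CPM with VC and 2872 to 4398 CPM with rbPDI. In bESCs it was 8.67 to 13.1 CPM with VC and 13.5 to 16.4 CPM with rbPDI. Beyond these values, the part of epithelial RNA in the results was not tested.

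The change with rbPDI was compared between bESCs and bEECs by an interaction test. The model treated the bESC and bEEC libraries of a device as independent, so its p-values ignore that pairing. In bEECs, which the protein flowed past, 531 genes were called (2.96%), and 460 of them were higher (2.57%). Of the 177 genes called higher in bESCs, 81 were also called higher in bEECs, which is 45.8% of the bESC list and 17.6% of the bEEC list. The change differed between the cell types for 79 genes (0.441%), positive in bESCs relative to bEECs for 14 (0.0781%) and negative for 65 (0.363%). The count was 17 without the replicate block. With 1 of the 12 libraries left out it was 34 to 44 without a bEEC library other than VC of animal 2, 39 without bESC rbPDI of animal 3 and 51 without bESC VC of animal 1. Without animals 1, 2 and 3 it was 4, 38 and 21.

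Of the 5 CXC chemokines, 4 had fold changes called as larger in bEECs by the interaction test. The 15 refits here leave out 1 of the 12 libraries or 1 animal. CXCL5 went from 19.6 ± 4.995 to 9433 ± 3974 CPM in bEECs (mean ± SD, n = 3) and from 4740 ± 3459 to 31810 ± 6187 CPM in bESCs, and the log2 difference of the changes, bESCs minus bEECs, was -5.87 ± 0.72 (adjusted p = 0.00265, 14 of 15 refits). For CXCL2 the difference was -4.96 ± 0.73 (adjusted p = 0.00656, range -5.74 without animal 2 to -3.70 without animal 1, 13 of 15 refits), for CXCL3 -5.69 ± 0.79 (adjusted p = 0.00586, range -6.52 without animal 3 to -4.58 without animal 1, 13 of 15 refits) and for GRO1 -4.25 ± 0.76 (adjusted p = 0.0252, range -4.89 without bESC VC of animal 3 to -3.14 without animal 1, 4 of 15 refits). The VC level of each of these 4 genes was higher in bESCs, for CXCL2 39.96 ± 21.96 against 0.774 ± 0.273 CPM. CXCL8, at 42.4 ± 63.8 CPM in bEECs with VC, gave no call for the difference (-1.31 ± 0.99, adjusted p = 0.799). Genes for which bEECs changed and bESCs did not reach a call included TNFAIP2, a TNF-induced gene (0.53 in bESCs and 3.75 ± 0.32 in bEECs, adjusted p of the difference = 0.00389), PLAT, the tissue plasminogen activator (-0.39 and 2.38 ± 0.28, adjusted p = 0.00605), and PLA2R1 (0.27 and 3.36 ± 0.40, adjusted p = 0.0132).

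In the other direction, 3 genes with a symbol changed more in bESCs. VEPH1 had a log2 fold change of 3.62 ± 0.37 in bESCs and -1.14 ± 0.30 in bEECs, a difference of 4.75 ± 0.48 (adjusted p = 0.000994, 14 of 15 refits). MARCHF3, a membrane ubiquitin ligase, had 24.8, 34.7 and 19.6 CPM with VC and 55.5, 115 and 142 CPM with rbPDI in bESCs (log2 fold change 1.93 ± 0.27, adjusted p = 0.00316), against 90.4 ± 21.7 and 64.5 ± 7.27 CPM in bEECs, a difference of 2.39 ± 0.38 (adjusted p = 0.0115, 10 of 15 refits). AHI1 differed by 1.85 ± 0.30 (adjusted p = 0.01196, 8 of 15 refits). TNFSF15 and RRAD, which rose in bESCs, had log2 fold changes of -0.05 ± 0.49 and -0.03 ± 0.35 in bEECs, but their differences did not pass the threshold (3.56 ± 0.74, adjusted p = 0.0568, and 2.11 ± 0.46, adjusted p = 0.0721).

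**Figure D5:**
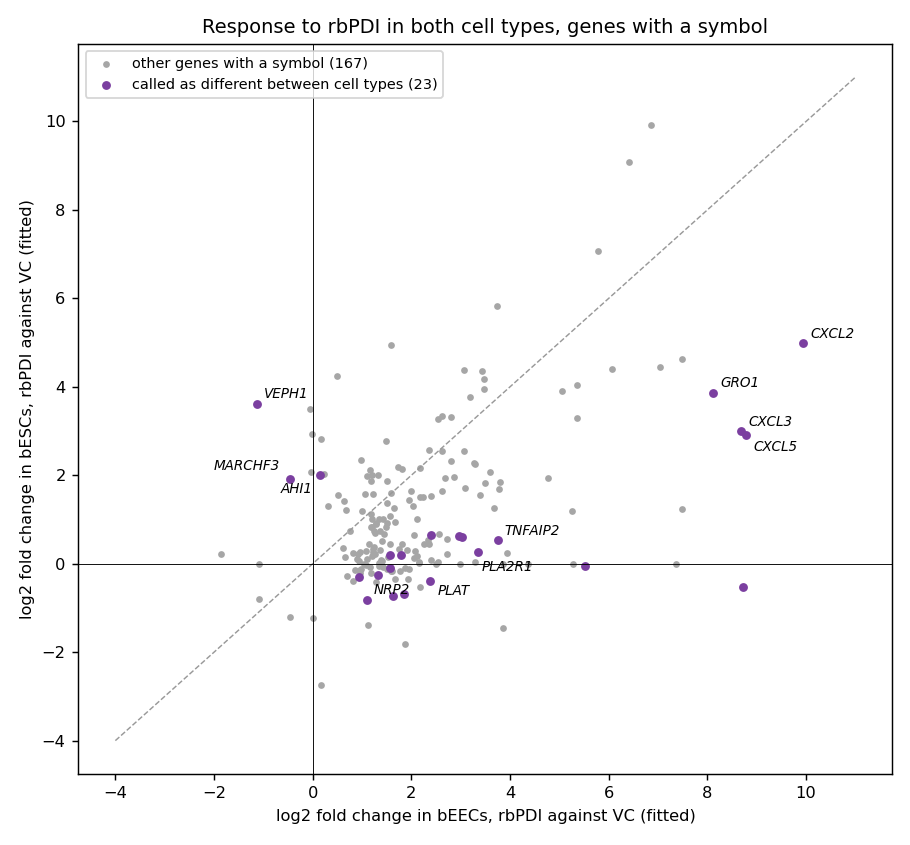
Each point is 1 of 190 genes with a symbol, with its fitted log2 fold change, rbPDI against VC, in bEECs on the x axis and in bESCs on the y axis, and a dashed line where both are equal. The 23 purple genes were called as different between the cell types, with 4 CXC chemokines far below the line and VEPH1, MARCHF3 and AHI1 above it.

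Devices of the same animals that received rbCAPG gave a second treatment to set beside rbPDI. Directly compared in bESCs, rbPDI and rbCAPG differed in 0 genes called by edgeR, while 706 genes had an unadjusted p under 0.05, and DESeq2 called 13 genes with the block and 0 without it. The smallest adjusted p was 0.138. Against VC, 86 genes were called with rbCAPG in bESCs (0.48%), 84 higher (0.468%) and 2 lower (0.0112%). Both treatments were measured against the same 3 VC libraries, so their values against VC are given side by side only. PTGS2 had log2 fold changes of 3.76 with rbPDI and 3.75 ± 0.43 with rbCAPG, and the difference between the proteins was 0.00 (95% interval -0.82 to 0.83). TNFAIP3 had 2.56 and 2.53 ± 0.25, with a difference of 0.03 (95% interval -0.48 to 0.53). For CXCL8 the values were 4.04 and 3.67 ± 0.76, and the interval of the difference was wide at 0.37 (95% interval -1.05 to 1.79). MMP1, called with rbPDI, had 3.32 and 2.20 ± 0.55 (adjusted p = 0.162 with rbCAPG), with a difference of 1.11 (95% interval -0.03 to 2.26). CD83 had 2.31 and 1.25 ± 0.44 (adjusted p = 0.536 with rbCAPG), with a difference of 1.07 (95% interval 0.16 to 1.97) and an adjusted p of 1. The unnamed gene ENSBTAG00000024493 had -1.67 and -0.49 ± 0.25, with a difference of -1.18 (95% interval -1.72 to -0.64) and an adjusted p of 0.383. The interval for CXCL8 spans a fold change of more than 2 in either direction, and a difference that missed the threshold does not show that the proteins act alike.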

How the data were processed

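RNA was measured in 18 libraries, 3 in each of 6 groups (bESCs and bEECs with VC, rbCAPG or rbPDI), and the report rests on the 6 bESC libraries with VC or rbPDI. Libraries were made with a SMART-Seq v4 kit and sequenced as paired ends. After trimming (Trimmomatic) and alignment to ARS-UCD1.3 (STAR), the authors counted reads per Ensembl gene with featureCounts. What they deposited are unnormalized estimated counts, since a read with more than 1 match was shared out as fractions (23.3% of values held a fraction). The sources state no strand setting, so reads of overlapping genes on opposite strands cannot be separated.

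Values were rounded and tested in R 4.3.3 with edgeR 4.0.16: filterByExpr over the 6 groups (17931 of 36075 genes), TMM, and the quasi-likelihood F-test on all 18 libraries with 6 group means and a block for each animal in each cell type, which left 8 residual degrees of freedom. The pairing comes from the study's methods, which seeded each device from 1 animal, and same-numbered bESC libraries deviated together from their group means (9 pairs, correlations across genes from 0.129 to 0.668). With the block, p-values rest on how the treatment differences varied among these 3 animals, not on the differences between animals. That spread was pooled over both cell types and all treatments and estimated partly from other genes. An exact permutation test of 3 against 3 libraries, which ignores the pairing, cannot go below 0.1. Alternatives were DESeq2 1.42.0 (Wald test, local fit), other filters, size factors and sets of libraries, no fold limit, glmTreat, unrounded values and left-out libraries or animals. The standard error is the log2 fold change divided by the square root of F.

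The libraries, gene lists and tests were chosen with earlier results of these data known. Named genes were every member of the CXC chemokine, feedback, NF-kB subunit and eicosanoid lists, the 3 members with the smallest p of each other list with any called lower, the 5 genes with a symbol called higher and lower with the smallest p, up to 5 each way in the comparison with rbCAPG and in the interaction, 2 unnamed genes each way, and markers. Genes outside this rule carry a remark that their values were known. Symbols were taken from the supplementary identifier and symbol pairs (245 identifiers, 190 with a symbol). The reference gene table is of another assembly and was used for no coordinates.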

Additional observations from a re-analysis of the deposited data

Results flagged for a closer look

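The change with rbPDI differed between bESCs and bEECs, by the interaction test of edgeR over all genes with the animal as a block, for 14 of the named genes. Values are the log2 change in bESCs minus that in bEECs. It was negative, a smaller rise or a fall in bESCs, for CXCL2 (-4.96), CXCL3 (-5.69), CXCL5 (-5.87), GRO1 (-4.25), TNFAIP2 (-3.22), PLA2R1 (-3.08), PLAT (-2.77), NRP2 (-1.91), ENSBTAG00000013306 (-2.81) and ENSBTAG00000024493 (-1.83). It was positive for VEPH1 (4.75), MARCHF3 (2.39), AHI1 (1.85) and ENSBTAG00000050417 (2.00). None of these 14 calls held without animal 1. The groups of 3 libraries are too small for a check of single outlying libraries.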

How the results depend on the processing

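For bESC rbPDI against VC, the 189 calls became 32 with no replicate block, 407 with DESeq2 and the block, 345 with no filter on low counts, 67 with the bESC libraries only, 48 with the groups compared only and 40 with glmTreat, and 45 to 192 with a library or an animal left out. The share of calls that were higher was 93.7%, 82.6% with DESeq2 and the block (336 higher and 71 lower), 81.2% with no filter (280 and 65) and 76.0% without VC of animal 2 (146 and 46). DESeq2 with no replicate block, DESeq2 size factors, the stricter filter, no fold limit and unrounded values gave 176 to 217. Members of the lists called higher, 50, became 19 with no replicate block, 27 with the bESC libraries only, 20 with the groups compared only and 19 with glmTreat, and 21 to 47 with a library or an animal left out (these fits were chosen after seeing the data). Differences between cell types, 79, became 17 with no replicate block, 399 with DESeq2 and the block, 230 with no filter and 24 with glmTreat, and 4 to 82 with a library or an animal left out. For rbPDI against rbCAPG, 0 calls became 13 with DESeq2 and the block and 28 with no filter, and 0 to 1 with a library or an animal left out. Of 61 genes called and named, 13 were called under every alternative run. The log2 fold changes of 2 uncalled genes reversed: PLA2R1 (-0.0499 without VC of animal 2 and -0.0057 without animal 2, range -0.0499 to 0.709 over left-out libraries and animals) and CXCR4 (-0.0606 without VC of animal 3 and -0.03 without animal 1 or 3, range -0.0606 to 1.10). The cause of these changes was not tested. Depth limits genes at a few counts, first of all in rbPDI of animal 1.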
